A study of Drosophila melanogaster with 32 samples.

Results

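Open chromatin of Drosophila melanogaster testes was compared at 48 h after a heat shock between bam mutants with and without a heat-shock-driven Bam transgene. ATAC-seq cuts accessible DNA with a transposase, so a peak marks an open stretch and fragments of nucleosome length mark nucleosomes. The comparison took the libraries that the labels place in the 48h group and in its heat shock control, 5 of the 20 ATAC-seq samples and of the 32 samples of the series. The deposited data hold 1 peak list and 1 nucleosome map for each condition, so 2 of the 6 peak lists of the series are set against each other. The 48h list held 36412 peaks and the control list 31173, of 200831 in all 6 lists. The 48h group (3 libraries) carried bam -/- together with Bam under a heat shock promoter, and its testes were labelled as enriched for young spermatocytes. The heat shock control (2 libraries) was bam -/-, with no Bam transgene in its genotype label, and was labelled as enriched for spermatogonia. Both groups grew on molasses medium at 22 C for 9 days, received 30 min at 37 C, were then kept at 25 C, and were dissected as males under 1 day old. Each library is labelled a technical replicate of 10 to 20 pairs of testes, which were digested with dispase and collagenase, so somatic cells of the testis were not removed by a sort. Heat, growth and time are therefore the same on both sides, and the genotype is what the labels give as different.

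Bam is the protein that spermatogonia need in order to stop dividing and become spermatocytes, and without it testes fill with spermatogonia. A pulse of Bam lets many of these cells enter the spermatocyte programme together. That programme depends on a testis form of a chromatin complex, tMAC, whose parts include Aly, Comr, Topi and Tomb, and on testis paralogs of the TFIID subunits, the testis TAFs. Both are needed for the transcription of meiotic and spermatid genes.

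The control's RNA was not analysed here. RNA values below therefore compare 2 libraries of the 48h group with 2 of unshocked bam mutants, which grew at 22 C for 12 days, so transgene, heat shock and growth time differ together in every RNA comparison. Each RNA library came from 100 pairs of testes of males under 2 days old and held 21552361 to 28984275 counts. Because tissue was measured in bulk, fewer cells of a type and less RNA per cell cannot be told apart. Of 13495 genes tested, 44.1% were called higher and 41.8% lower at 48h (edgeR's quasi-likelihood test, Benjamini-Hochberg adjusted p below 0.05), and 30.2% and 22.7% passed the call with a change of 2-fold or more. That split, 57.0% higher among the 2-fold calls, became 67.2% with no filter on low counts, which moved the median of all genes by 0.24 (log2). The labels were checked on bam and on aly. bam (3R:25243039-25245109) had a peak at an end of the gene in both lists, of fold enrichment 2.59 in the 48h list and 3.48 in the control list. Its RNA was 94.9 and 98.5 CPM (edgeR's normalised counts, scaled to library size) in the bam libraries and 29.4 and 29.4 in the 48h libraries, a log2 change of -1.72 (SE 0.0421, adjusted p 1.51e-26, edgeR). The position of the bam mutation is not stated in the labels, so this value checks no knockout. Reads from the Bam transgene of the 48h group may also count as bam, and were not separated in these RNA and peak values. aly, the tMAC gene that follows below, was higher at 48h, as were markers of spermatocytes, while 8 of 12 tested genes of a spermatogonial list were lower by 2-fold or more.

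Peaks were called shared where a peak of the other list overlapped them by at least 1 bp. Of the 48h peaks, 11364 (31.2%, 95% Wilson interval 30.7 to 31.7) had no counterpart in the control, and 25048 did. Of the control peaks, 4095 (13.1%, 12.8 to 13.5) had no counterpart at 48h. With 1 list per condition there is no replicate check of these counts, and the intervals cover counting error only. The 48h list rests on 3 libraries against 2, and its nucleosome map holds 2775462 reads against 1322675 in the control map, so the 48h data were deeper. With the 48h list cut to the control's length by rank, 7673 peaks (24.6%) were 48h-only and 5588 (17.9%) control-only. Where a shared peak had to overlap reciprocally by 50%, 42.1% and 32.4% were found in 1 list, and the control-only count rose to 10102. The part of depth itself was not tested.

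Peaks found in 1 list were weaker than shared ones. The fold enrichment and -log10 q of a peak are the authors' values and serve here to rank peaks within a list. In the 48h list the median fold was 2.02 for peaks only at 48h, with a highest value of 9.11, and 3.28 for shared peaks. In the control list it was 2.02 for control-only peaks, with a highest value of 10.9, and 3.12 for shared peaks. Their median width was 147 bp at 48h and 130 bp in the control, against 278 and 215 bp for shared peaks. A -log10 q of 10 or more was reached by 5119 of the 48h-only peaks (45.0%) and by 624 of the control-only peaks (15.2%). Over the whole lists it was reached by 74.4% of the 48h peaks and 65.0% of the control peaks. Among the strongest class of the 48h list, with a -log10 q of 100 or more, 31 of 7272 peaks were 48h-only. In the class from 30 to 100 it was 771 of 8589 (8.98%), and 91.8% of those 771 recurred in the list of 72 h after the shock. In the control list the same classes held 2 control-only peaks of 4193 and 21 of 7148.

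Many 1-list peaks lay near a peak of the other list. The median distance to the nearest one was 1020 bp for 48h-only and 781 bp for control-only peaks, and 16.0% and 21.0% lay within 200 bp. Another 14.9% and 12.6% lay more than 5000 bp from any peak of the other list.

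The 4 lists of other conditions, which the comparison did not use, overlapped the 2 kinds of peak to different extents. They come from unshocked bam mutants, from the same heat-shock Bam flies at 72 h, and from aly and topi mutants, whose spermatocytes arrest for lack of a tMAC part. The bam flies grew at 22 C for 12 days, and the aly and topi flies at 25 C for 10 days, with no heat shock listed. The part of these conditions in the overlaps was not tested. Of the 48h-only peaks, 57.6% overlapped the 72h list, 20.6% the bam list, 34.6% the aly list and 42.2% the topi list. Of the control-only peaks, 17.7% overlapped the 72h list, 28.4% the bam list, 11.9% the aly list and 33.4% the topi list. Shared peaks of the 48h list overlapped these lists in 81.1% to 92.4% of cases, and 73.2% of them were in all 4. The most frequent pattern named here was a 48h-only peak in the 72h but not in the bam list, with 4910 peaks (43.2%), against 702 in the bam but not in the 72h list. For control-only peaks the order was the other way round, with 837 (20.4%) in the bam but not in the 72h list and 400 (9.77%) the reverse. A further 2468 48h-only peaks (21.7%) and 1763 control-only peaks (43.1%) were in none of the other 4 lists, as were 1.95% of shared peaks. The lists differ in length (bam 30062, 72h 35547, aly 29559 and topi 38078 peaks), and the part of that in these shares was not tested. The 48h and 72h groups share the transgene and the heat shock, and the bam and control groups share its absence.

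**Figure D1:**
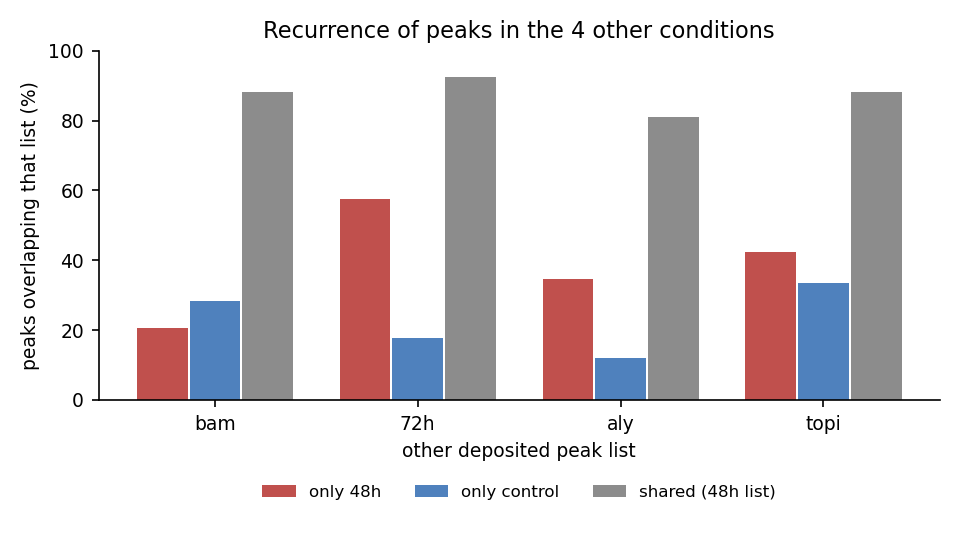
Share of 48h-only, control-only and shared peaks (y axis, percent) that overlap each of the 4 other deposited peak lists (x axis) by at least 1 bp. 48h-only peaks stand at 57.6% for the 72h list and 20.6% for the bam list, and control-only peaks at 17.7% and 28.4%.

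Peaks were placed by any overlap with annotated genes (dm6 per the submitters' processing notes, NCBI's gene table of the same release). The table gives no strand, so both ends of a gene were used, and a gene end may be a start or a stop. A peak counted as at a gene end where any part of it, not only its summit, lay within 100 bp of one. That held for 1851 of the 48h-only peaks (16.3%), 307 of the 4095 control-only peaks and 32.7% of shared 48h peaks. Shared peaks were wider and so reach such a window more easily, and the part of width was not tested. Most 1-list peaks overlapped a gene without reaching an end window and are called inside genes, 67.6% at 48h and 73.8% in the control. Of the 1851 48h-only peaks at gene ends, 1481 were in the 72h list, against 53.4% of those inside genes, and 255 were in the bam list, against 22.3%. Of the 700 48h-only peaks that recurred in the 72h and aly lists but not in bam or topi, 41.3% were at gene ends. The genes with most 48h-only summits inside them, chosen after their values were seen, were long: heph (34 of its 97 summits), sm (22 of 37), Prosap (21 of 36) and cv-c (21 of 43). pdm3, a POU homeodomain gene, had 19 of 25. DIP-lambda had the most control-only summits (18 of 30), and heph held 13 of those as well.

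The share of 48h-only peaks was similar on the X, at 31.3% (30.0 to 32.6), and on chromosomes 2 and 3 together, at 31.1%. The share of control-only peaks was 6.16% on the X (5.46 to 6.94) and 14.1% on chromosomes 2 and 3 (13.7 to 14.6). Among control peaks with a -log10 q of 10 or more it was 1.99% and 3.21%. On the small chromosome 4, 191 of 478 peaks were 48h-only (95% interval 35.7% to 44.4%) and 18.1% control-only. The X held 14.0% of the 48h list and 13.0% of the control list, and its median fold within each list was 2.92 and 3.37.

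The strongest 48h-only peaks at gene ends lay at little-studied genes. The highest, of fold 9.11, covered 3R:30628677-30629141 at the end of CG2267. CG2267 RNA was 3.16 and 2.49 CPM in the bam libraries and 166 and 171 CPM in the 48h libraries. The groups did not overlap, which held for 92.1% of all genes tested, and the log2 change was 5.90 (SE 0.0572, adjusted p 3.11e-37, edgeR). The next was at CG42691 (2R:19946747-19946971, fold 8.27), whose 3 counts in the bam libraries gave a ratio of 252 (95% counting interval 85.9 to 1223). The noncoding gene lncRNA:CR44059 followed, with a fold of 7.75 and a ratio of 125 (42.5 to 608). CG15109 had a fold of 7.50 and 1 count in the bam libraries against 19344 at 48h. CG9962, of fold 6.95, had no bam counts and was at least 693-fold higher at 48h, counting the floor of 3 counts over the bam group. CG3687, of fold 6.93, was 0.283 and 0.387 CPM in bam against 68.6 and 66.5 CPM at 48h. All 10 genes of this rank had their peak in the 72h list too, 2 of the 10 peaks (at CG15109 and CG9962) were also in the bam list, and the 9 genes tested were higher by 2-fold or more.

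The strongest control-only peaks at gene ends had folds of 3.14 to 3.99. They lay at CG7785, DEF8, Nek2, AGO3, CG10395, asRNA:CR46487, Whamy, mthl15, CR40190 and CG45072, and 8 of the 10 were in the bam list and 4 in the 72h list. Of 8 genes tested, 3 were lower at 48h by 2-fold or more (CG7785, AGO3 and CR40190) and 1, Whamy, was higher. CG7785 also had a 48h peak at its other end. Nek2, on the X, was 1.98 and 2.66 CPM in bam and 3.42 and 4.14 CPM at 48h, a log2 change of 0.70 (adjusted p 0.000555, edgeR). DEF8 was 23.8 and 24.2 CPM in bam against 24.4 and 24.2 at 48h, with a log2 change of 0.02 (adjusted p 0.81, edgeR), which became 0.20 (adjusted p 0.00453) with library size alone as the scale.

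At the level of genes, 1736 of 17807 placed genes (9.75%) had a peak within 100 bp of an end in the 48h list only, 258 (1.45%) in the control list only, 9129 in both and 6684 in neither. In 1492 of the 1736 the peak itself was 48h-only; in the others a peak shared with the control reached the gene's window at 48h alone. Neighbours share peaks: 46.3% of the 48h-only genes had an end within 200 bp of another gene's end. A 72h peak lay at an end of 83.9% of the 48h-only genes and a bam peak at 13.4%. For control-only genes these were 30.2% and 38.0%. By arm, 48h-only genes made up 11.2% of 2L, 10.6% of 2R, 7.96% of 3L, 8.47% of 3R, 11.4% of the X and 2.44% of the Y.

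RNA, which the choice of peaks did not use, differed by peak state. Of 1460 tested genes with an end peak only at 48h, 1017 (69.7%) were higher at 48h by 2-fold or more and 123 (8.42%) were lower, beside 30.2% and 22.7% of all genes tested. Their median log2 change was 5.14, against 0.06 over all tested genes. They also started low, at a median of 0.529 CPM in bam, against 10.7 CPM over all tested genes with a place. Genes with a peak in neither list started at 0.315 CPM. The part of the starting level was not tested. Of 164 genes with an end peak only in the control, 32 (19.5%) were higher and 51 (31.1%) lower, with a median of -0.27. Genes with a peak in both lists were higher in 15.1% and lower in 28.3% of 7954 cases, and genes with a peak in neither were higher in 48.7% and lower in 15.3% of 3650 cases. The share of higher genes in the 48h-only state was 75.9% of 789 where no other gene end lay within 200 bp. It was 72.4% of 1254 where the peak itself was 48h-only, and 65.3% of 271 on the X. Among lncRNA genes, 218 of 1995 (10.9%) had an end peak only at 48h, near the 9.75% of all placed genes. Of the 144 tested, 82.6% were higher by 2-fold or more. Over all 968 lncRNA genes tested that share was 59.3%, and among the 583 with a peak in neither list it was 63.5%.

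**Figure D2:**
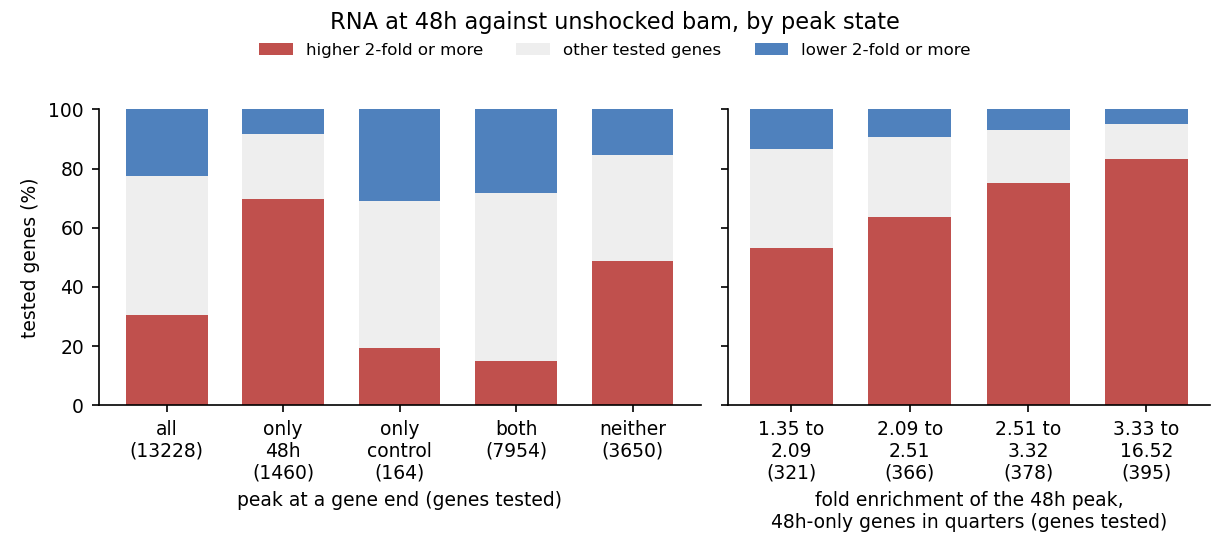
Share of tested genes with a place (y axis, percent) that were higher, lower or neither by 2-fold or more in RNA at 48h against unshocked bam, by end-peak state (left) and, for 48h-only genes, by fold enrichment of the 48h peak in 4 groups (right). 69.7% of the genes with an end peak only at 48h were higher, from 53.3% in the group of lowest fold to 83.3% in the highest. These genes include those where a peak shared with the control reached the window at 48h alone.

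The RNA of 48h-only genes also went with the other lists and with peak strength. Where a 72h peak was present 75.2% were higher by 2-fold or more, and where it was absent 32.6% of 190. Where a bam peak was absent, 956 of 1274 were higher, and where it was present, 61 of 186 (32.8%). With the 48h-only genes split by peak fold into 4 groups of like size, the shares were 53.3%, 63.7%, 75.1% and 83.3%, the lowest group running from 1.35 to 2.09 and the highest from 3.33 to 16.5. The share with a 72h peak was 65.2%, 83.4%, 91.1% and 95.9% in the same groups. Read from the RNA side, 1326 placed genes rose by 6 or more on the log2 scale. Of these, 600 (45.2%) had an end peak only at 48h, 590 (44.5%) had none in either list and 134 (10.1%) had one in both. Among the 780 tested genes with no count in either bam library, 548 had no end peak in either list and 160 had one only at 48h.

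Within the 48h-only genes, the largest rises were those of tbrd-2, cocoon, CG7907, lncRNA:CR43803 and sa, all with 0 counts in both bam libraries. The peaks at CG7907 and lncRNA:CR43803 overlapped a control peak outside the gene's window. cocoon was 411 and 416 CPM at 48h, at least 6134-fold higher, and CG7907 was 389.6 and 388 CPM, at least 5770-fold higher. The largest falls included those of lncRNA:CR44842 (log2 change -2.74), CG34323 (-2.71), lncRNA:CR43961 (-2.48) and l(1)G0020 (-2.26). lncRNA:CR44842 also had an end peak in the bam list, and CG34323 and lncRNA:CR43961 share 1 peak. CG34323 was 66.2 and 68.1 CPM in bam and 10.3 and 10.2 CPM at 48h. Among control-only genes the largest falls were CG4570 (-3.26), Pxt (-3.25), Trm1 (-2.08), lncRNA:CR44560 (-2.04) and CCHa2 (-2.03). Pxt, a peroxidase-family gene, was 33.8 and 33.5 CPM in bam and 3.49 and 3.58 CPM at 48h. The largest rises there were CG31287 (4.58), CG32944 (4.28), CG14314 (3.11), Whamy (2.62) and msopa (2.55).

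Of the tMAC genes and the homeodomain partners achi and vis, 4 of 8 had an end peak only at 48h and 4 in both lists, and none was control-only. Over all placed genes, 9.75% had an end peak only at 48h, 1.45% only in the control, 51.3% in both lists and 37.5% in neither. Among all genes tested, 30.2% were higher and 22.7% lower in RNA by 2-fold or more. Both sets of shares are the background for each gene list below. aly (3L:3024129-3026521), the tMAC gene for which the class of arrest mutants is named, had a 48h-only peak at 3L:3026294-3026610 with a fold of 3.49, and a weaker one inside the gene at 3L:3025778-3026035 with a fold of 2.28. aly RNA was 37.6 and 38.5 CPM in the bam libraries and 184 and 189 CPM in the 48h libraries, so its RNA was present in the bam libraries too and the groups did not overlap. The log2 change was 2.29 (SE 0.0322, adjusted p 5.17e-33, edgeR). comr, which encodes another tMAC part, had a 48h-only peak at 2R:21866775-21867008 with a fold of 3.77. Its RNA was listed at 0 in both bam libraries and at 58.4 and 57.9 CPM at 48h, at least 863-fold higher. tomb had a weak 48h-only peak of fold 1.93 and RNA of 13.6 and 12.5 CPM in bam against 49.4 and 53.1 CPM at 48h. vis had the weakest of these, of fold 1.42, with 10.7 and 9.76 CPM against 197 and 190.5. Its neighbour and near copy achi had a peak in both lists, and reads of these 2 similar genes may be hard to assign. topi also had a peak in both lists, of fold 9.02 and 9.80, while its RNA went from 3.67 and 3.91 CPM to 161 and 160 CPM, a log2 change of 5.40. mip40 and Caf1-55, parts that tMAC shares with complexes outside the testis, had a peak in both lists and changed by 0.82 and -0.43. Another gene's end lay within 200 bp of an end of topi, tomb, mip40 and Caf1-55, so their peaks may not be theirs alone.

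Of the 5 testis TAF genes, 4 had an end peak only at 48h, beside 9.75% of all placed genes. can (a TAF5 paralog), sa (TAF8), mia (TAF6) and nht (TAF4) had end peaks only at 48h, of fold 2.23, 2.05, 1.81 and 3.85. Taf12L had one in both lists. All 5 were higher in RNA by 2-fold or more, beside 30.2% of all genes tested. can was 0.612 and 0.473 CPM in bam against 175 and 174 CPM at 48h, and sa was at 0 in both bam libraries and at 175 and 178 CPM at 48h, at least 2619-fold higher. mia and nht were transcribed in bam already, mia at 17.9 and 16.1 CPM against 49.1 and 46.0, and nht at 8.01 and 8.42 CPM against 106 and 107. Taf12L, at 30.7 and 29.2 against 73.1 and 77.4 CPM, had the smallest change, 1.33 on the log2 scale.

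All 3 testis bromodomain genes, whose products act with the testis TAFs, had end peaks only at 48h, and none had one in the bam list. Over all placed genes, 9.75% were 48h-only. Each of the 3 has another gene's end within 200 bp of one of its own, so these peaks may not be theirs alone. Those of tbrd-1, tbrd-2 and tbrd-3 had folds of 3.79, 3.44 and 5.40. tbrd-1 RNA was 5.61 and 5.41 CPM in bam and 469 and 458 CPM at 48h. tbrd-2 was at 0 in both bam libraries and at 415 and 412 CPM at 48h, at least 6138-fold higher. tbrd-3 was 1.18 and 0.731 CPM against 46.4 and 43.6.

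Among early regulators of spermatocytes, kmg, Rbp4 and fest had end peaks only at 48h. Another gene's end lay within 200 bp of an end of kmg and Rbp4, so their peaks may not be theirs alone. kmg, a zinc finger gene whose product keeps somatic promoters off in spermatocytes, had a peak of fold 1.99, which recurred at 72 h, and RNA of 2.59 and 2.75 CPM against 211 and 210.3. Rbp4 and fest act in the translational control of Cyclin B. Rbp4 had a peak of fold 3.28 that recurred in the aly and topi lists but not at 72 h, and RNA of 2.64 and 3.61 CPM against 399.9 and 399 CPM. fest had 2.40 and 1.85 CPM against 695 and 686, and the peak reaching its end, of fold 4.84, overlapped a control peak. sunz had no end peak in either list, and bru1 and eIF4G2 had one in both with log2 changes of -0.09 and 0.24. The sign of the bru1 change turned under another scaling (0.10 with library size alone).

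**Figure D3:**
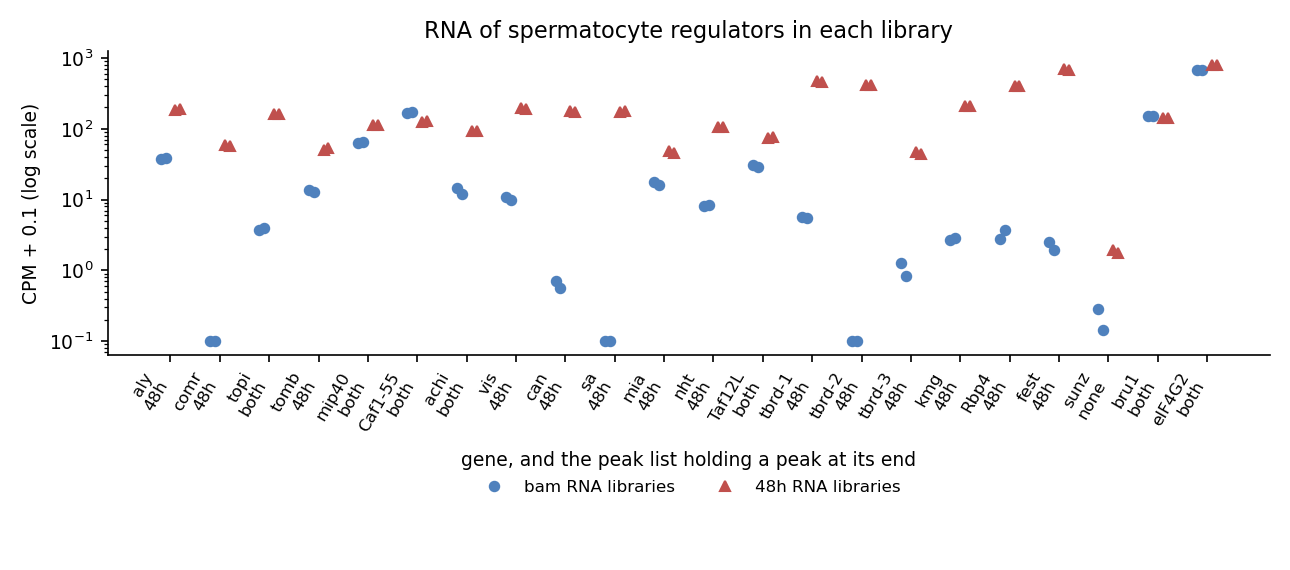
Normalised RNA level of 22 regulators of spermatocytes in each bam and 48h RNA library (y axis, CPM + 0.1, log scale), with the list holding a peak at a gene end under each name. comr, sa and tbrd-2 lie at 0 counts in both bam libraries, while aly stands at 37.6 and 38.5 CPM there.

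Genes of the meiotic divisions were marked in both lists: all 11 had a peak in both, and RNA of 3 was higher and of 2 lower by 2-fold or more, shares near the 30.2% and 22.7% of all genes tested. bol, whose RNA-binding product promotes translation of the meiotic phosphatase Twine, was 43.7 and 45.9 CPM in bam against 404 and 404 at 48h. twe, which encodes that phosphatase, was 76.5 and 75.8 against 171 and 178 CPM. stg, the mitotic counterpart, was 73.4 and 71.0 CPM against 9.67 and 9.51, a log2 change of -2.91 (SE 0.0605, adjusted p 1.69e-28, edgeR). The peaks of these genes, which were named after their values were seen, were thus shared while their RNA moved in opposite directions. CycA, of fold 10.5 and 9.58 in the 2 lists, had a log2 change of -1.03, and Rca1 had one of 1.12.

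Of 39 placed genes of spermatid differentiation, 24 had an end peak only at 48h, 4 in both lists and 11 in neither. Over all placed genes the shares were 9.75%, 51.3% and 37.5%. All 39 were higher in RNA by 2-fold or more, beside 30.2% of all genes tested. A peak of the 72h list lay at 36 of the 39, of the aly list at 20, of the topi list at 7 and of the bam list at 4. Of the 24, 13 had a peak that was itself 48h-only, and at 11 a shared peak reached the window at 48h. The highest folds were at Mst98Ca and Mst98Cb, sperm tail genes that share 1 peak of fold 5.03, at soti (4.75), a regulator of caspases in spermatids, and at S-Lap1 and S-Lap2 (4.73), sperm aminopeptidase genes that share 1 peak. The peaks at the Mst98C and S-Lap genes named here overlapped a control peak, and the soti peak was itself 48h-only. soti was 0.518 and 0.559 CPM in bam against 166 and 166 CPM at 48h, a log2 change of 8.25 (SE 0.0671, adjusted p 3.58e-39, edgeR). S-Lap1 was 4.95 and 5.07 CPM against 840.0 and 844. Mst77F, a sperm chromatin gene, had a peak in both lists, and its RNA went from 6.78 and 6.79 to 394 and 390.2 CPM. m-cup, also with a peak in both, went from 69.6 and 71.5 to 184 and 193 CPM. The 11 genes without an end peak had log2 changes from 1.63 to 9.88, so they overlap the range of the 24, which ran from 4.58 to 8.30.

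**Figure D4:**
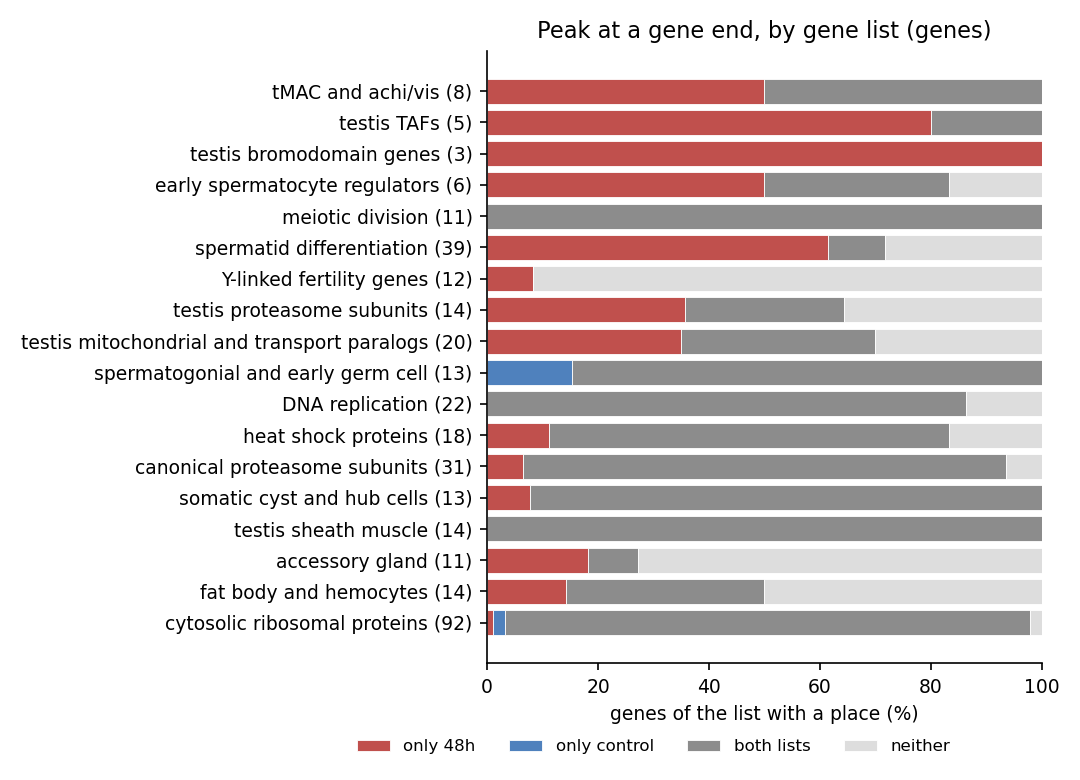
Share of the placed genes of each of 18 gene lists (x axis, percent) that have a peak within 100 bp of a gene end only at 48h, only in the control, in both lists or in neither. All 3 bromodomain genes and 24 of 39 spermatid genes are 48h-only, while all 11 meiotic division genes have a peak in both lists. Over all placed genes 9.75% are 48h-only and 51.3% have a peak in both lists.

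Testis paralogs of housekeeping machines were split between the states. Of 14 testis proteasome subunits, 5 had an end peak only at 48h, 4 in both and 5 in neither. Over all placed genes the shares were 9.75%, 51.3% and 37.5%. RNA of 13 was higher by 2-fold or more, beside 30.2% of all genes tested. Prosalpha4T2 had the highest fold, 6.85, with RNA of 0.330 and 0.344 CPM in bam and 48.8 and 48.8 CPM at 48h, and its peak overlapped a control peak. Prosbeta5R2 (fold 3.01), Prosbeta4R2 (2.37) and Prosbeta5R1 (2.23) followed, with log2 changes of 7.52, 5.02 and 5.22, and the Prosbeta5R2 peak also overlapped a control peak. Among 31 canonical subunits, 27 had an end peak in both lists, and of 30 tested none was higher and 2 were lower by 2-fold or more. Prosalpha4 and Rpn6 were 48h-only there, with log2 changes of -0.37 and -0.03, and the sign of the Rpn6 change turned under another scaling (0.16 with library size alone).

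Of 20 testis paralogs of mitochondrial and transport proteins, 7 had an end peak only at 48h, 7 in both and 6 in neither. Over all placed genes the shares were 9.75%, 51.3% and 37.5%. All 20 were higher by 2-fold or more, beside 30.2% of all genes tested, and had an end peak at 72 h. ttm2, a paralog of a mitochondrial import subunit, had a fold of 4.23, at a peak that overlapped a control peak, and RNA of 0.471 and 0.645 CPM in bam against 47.6 and 47.8. ND-24L, a paralog of a complex I subunit, had a fold of 3.30 and 0.659 and 0.559 CPM against 42.1 and 42.6. ND-20L and ATPsynGL, with 2 and 3 bam counts, had ratios of 599 (165 to 4947) and 681 (233 to 3306). Cyt-c-d, the testis cytochrome c, had a peak in both lists with a log2 change of 5.92.

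The Y-linked fertility genes, giant genes that spermatocytes transcribe, had few end peaks, as did the Y as a whole. Of 12, 1 (ORY, fold 2.00) was 48h-only and 11 had a peak in neither list. Of all 123 placed Y genes, 3 were 48h-only and 117 had a peak in neither list. RNA of 11 of the 12 was higher by 2-fold or more, beside 30.2% of all genes tested. kl-3, a dynein heavy chain gene, was 0.518 and 0.387 CPM in bam against 9.91 and 10.8 CPM at 48h. ORY itself was 0.141 and 0.0859 against 0.553 and 0.343 CPM.

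Genes of spermatogonia and early germ cells had no end peak only at 48h. Of 13 placed, 11 had one in both lists and AGO3 and otu in the control only, beside 51.3% and 1.45% of all placed genes. Of 12 tested, 8 were lower at 48h and 1 was higher by 2-fold or more, beside 22.7% and 30.2% of all genes tested. AGO3, a piRNA pathway Argonaute, had its peak at 3L:23554445-23554616, which the bam list also held. AGO3 RNA was 254 and 254 CPM in bam against 69.3 and 65.8 at 48h, a log2 change of -1.91 (SE 0.0310, adjusted p 2.11e-31, edgeR). otu, on the X, encodes a deubiquitinase of germ cells, had a control fold of 2.75 and was 25.7 and 25.4 CPM against 9.05 and 9.04. krimp, a Tudor gene of the piRNA pathway with a peak in both lists, had a log2 change of -1.18. chinmo, a BTB zinc finger gene with a peak in both lists, was the one that was higher, at 226 and 232 CPM against 526 and 524.

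DNA replication genes had lower RNA and peaks in both lists. Of 22 placed, 19 had an end peak in both lists and 3 in neither, beside 51.3% and 37.5% of all placed genes. Of 19 tested, 16 were lower by 2-fold or more and none higher, beside 22.7% and 30.2% of all genes tested. dpa, which encodes an MCM helicase subunit, had folds of 8.07 and 7.15 and RNA of 177 and 176 CPM against 53.3 and 54.3. dup, the licensing factor Cdt1, had folds of 11.5 and 12.3 and a log2 change of -0.84. Ribosomal protein genes were mostly alike: 87 of 92 had a peak in both lists. Of 86 tested, 71 were lower and 2 higher by 2-fold or more, with log2 changes from -1.90 to 9.88. RpS30, with folds of 10.3 and 9.68, had a log2 change of -1.45. RpL34a was 48h-only, and RpS10a and RpS14a were control-only.

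Most heat shock genes had an end peak on both sides. Of 18 placed, 13 had one in both lists, 2 at 48h only and 3 in neither, beside 51.3%, 9.75% and 37.5% of all placed genes. The strongest was that of Hsp70Ba, of fold 17.9 in the 48h list and 15.4 in the control list. Hsp70Bb, whose window was reached by a peak that overlapped a control peak, and Hsp22 were the 2. The end peak of Hsp22 had a fold of only 1.68. A shared peak inside Hsp22 had a fold of 5.26 at 48h and 7.02 in the control. Of 17 tested, 9 were lower at 48h than in unshocked bam by 2-fold or more and none higher. Over all genes tested, 22.7% were lower and 30.2% higher. Hsp70Ba was 59.5 and 68.0 CPM in bam against 13.0 and 14.1, although the Hsp70 copies are nearly identical and share reads. Hsc70-4, the constitutive form, was 4145 and 4270.2 CPM against 1445 and 1490.3.

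Markers of cyst, hub and muscle sheath cells mostly had an end peak in both lists, as did 51.3% of all placed genes. Of 13 genes of cyst and hub cells, 12 had an end peak in both, and their summed RNA was 408 and 410 CPM in bam against 237 and 235 at 48h. upd1, the hub signal, was the 48h-only one, with a fold of 2.67 and RNA of 0.141 and 0.215 CPM against 1.55 and 1.496. All 14 genes of the muscle sheath had a peak in both, with a summed RNA of 2175 and 2199 CPM against 1117 and 1137. Fat body and hemocyte genes summed to 2382 and 2461 CPM against 920 and 943. Of 13 tested, 10 were lower by 2-fold or more, beside 22.7% of all genes tested. Accessory gland genes summed to 98.8 and 96.0 CPM against 610 and 609. By 2-fold or more 10 of 11 were higher, beside 30.2% of all genes tested. No end peak in either list was found at 8 of the 11, beside 37.5% of all placed genes. The part of these other tissues in the RNA differences was not tested.

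Nucleosomes were mapped at 132857 positions at 48h and 105803 in the control. The maps carry an occupancy fraction with a lower and an upper bound, and the reads behind each position, with a median of 13 reads at 48h and 8 in the control. The median occupancy was 0.823 and 0.837 and the median spacing 203 and 205 bp. Positions lie mostly near peaks, 83.3% of those at 48h and 81.5% of those in the control within 500 bp of a peak of the same condition, so the presence of a position partly restates the peak lists. Within 150 bp of a 48h-only summit a position was mapped for 86.5% of peaks at 48h and 40.4% in the control. At control-only summits it was 55.8% and 84.0%, and at shared summits 86.0% and 84.0%. In each map positions were fewer at the summit than about 130 bp to either side. At control-only summits the control map held 4.27 positions per 100 peaks at -10 bp (20 bp bins), near the 4.40 at -490 bp. At shared summits the control map held 3.85 and 5.01 in these bins. In the 20 bp bin centred 130 bp before a 48h-only summit there were 13.1 positions per 100 peaks at 48h and 5.05 in the control. At shared summits the same bin held 15.6 and 14.496.

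**Figure D5:**
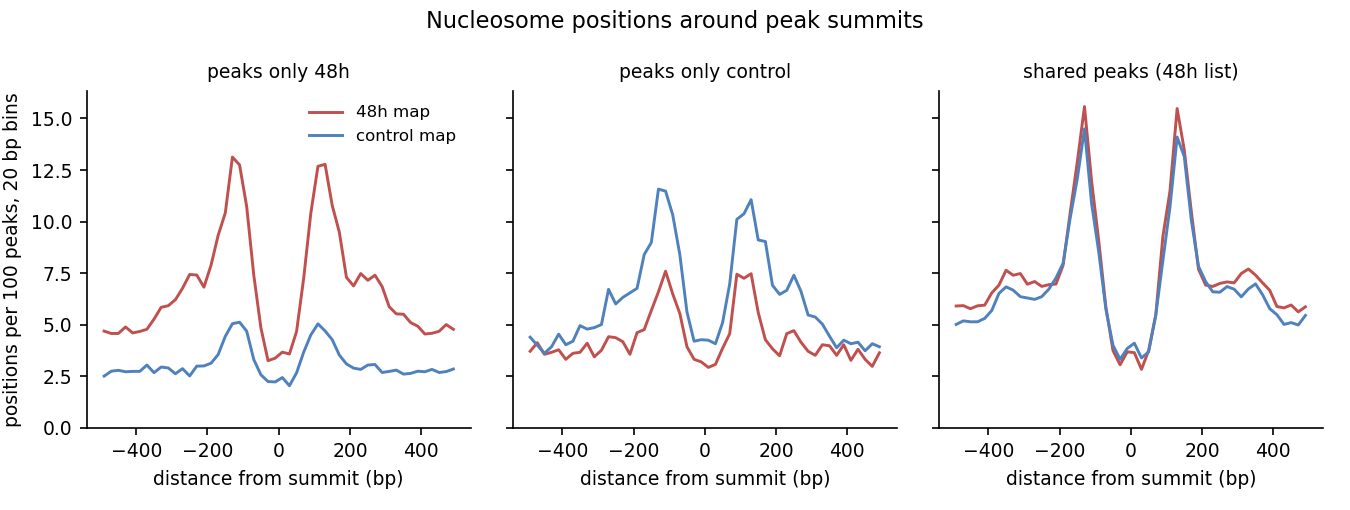
Nucleosome positions per 100 peaks in 20 bp bins (y axis) by distance from the summit in bp (x axis), for 48h-only, control-only and shared peaks, in the 48h and control maps. At shared summits both maps peak near 130 bp on either side, with 15.6 and 14.496 positions per 100 peaks in the bin centred at -130 bp. In that bin 48h-only summits have 13.1 and 5.05.

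Where both maps held a position, occupancy was close. Over 17629 positions placed within 10 bp of each other the median occupancy was 0.849 at 48h and 0.866 in the control. The bounds did not overlap at 112 positions that were higher (0.635%) and 391 that were lower at 48h (2.22%). Within 150 bp of an end of a gene with an end peak only at 48h, 12 of 175 positions were lower (6.86%) and 1 was higher. At ends of genes with a peak in both lists, 239 of 4405 were lower (5.43%), so the 2 states had similar shares. Examples, chosen after their values were seen, were positions at ends of CoRest on the X, with 0.754 at 48h against 0.995 in the control, and of Uch, with 0.645 against 0.996. Each rests on 1 map per condition, and the reads behind shared positions were fewer in the control, with a median of 14 against 25.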

How the data were processed

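Groups followed the labels. The deposited peak lists hold 1 fold enrichment (a ratio) and 1 -log10 q per peak, and the deposited nucleosome maps an occupancy fraction with bounds and a count of reads. The deposited RNA-seq values are raw counts per gene. The submitters' processing notes name MACS2 2.1.1, BWA 0.7.10, STAR 2.5.1b, STAR 2.5.4b, bedtools 2.25.0, deepTools 2.5.4, Trim Galore 0.4.1 and the genome build dm6. Which tool made which file, the nucleosome caller, the strand setting and whether replicates were pooled were not given in the sources used here. No column of per-sample values was left unused (0).

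Peaks were shared at an overlap of at least 1 bp. A gene had an end peak where a peak reached within 100 bp of either end, since the gene table used gives no strand; 17807 genes had a place, and 306 of 17559 gene identifiers of the count files had no symbol. Nucleosome positions were sought within 150 bp of summits. ATAC-seq comparisons have 1 list per condition and carry no test; Wilson intervals cover counting error only.

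edgeR 4.0.16 in R 4.3.3 was fitted to all 8 RNA-seq libraries (filterByExpr, TMM, quasi-likelihood test), with the contrast 48h minus bam. The protocols name no separate cultures for replicate libraries, so p-values measure the spread between these libraries, which was narrow (common biological coefficient of variation 2.11%) and may be technical. By a chi-square test at 0.05, 7.23% (48h) and 7.45% (bam) of genes differed between replicate libraries. Where a gene had 0 bam counts, the fold was bounded by assuming 3 counts over both bam libraries; with 1 to 3 counts a ratio has an exact 95% interval. The test was run first on simulated counts. Tables and figures were made with Python 3.11.15, pandas 2.3.3, scipy 1.17.1 and matplotlib 3.10.9.

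Genes named are bam and aly, the 10 with the strongest 1-list peak on each side, the 5 largest called rises and falls per 1-list state at 10 CPM or more, and the top members by fold of each of 18 gene lists. One gene that this rule names is not reported here. Other names were chosen after their values were seen. The members and lists were chosen with earlier results of these data known.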

Additional observations from a re-analysis of the deposited data

How the results depend on the processing

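The 48h list kept more peaks found in 1 list than the control list under every overlap rule and threshold tried. The counts moved by over 1.5 times as follows. Control-only peaks numbered 10102 at 50% reciprocal overlap. With a -log10 q of 10 or more in both lists they numbered 1032. At a fold of 4 or more in both lists, 1805 peaks were 48h-only and 1001 control-only. Peaks with a -log10 q of 10 or more against the whole other list numbered 5119 and 624. For genes with an end peak, a -log10 q of 10 or more in both lists left 124 control-only genes, and against the whole other list 100. At a fold of 4 or more there were 1054 48h-only and 412 control-only genes. With a window of 500 bp, 63 control-only genes were higher in RNA by 2-fold or more. Of genes with no other end within 200 bp, 599 of the 48h-only ones were higher and 53 lower, and 27 of the control-only ones lower. Without a bam peak, 79 of the 48h-only genes were lower. These last smaller counts come from fewer genes, and those settings, with the one asking the peak itself to be in 1 list, were chosen after seeing the data.

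A nucleosome position was found at 33.5%, 97.0% and 76.9% of 48h-only summits in the 48h map (75 bp, 250 bp and positions at or above the median reads) and at 19.2%, 47.0% and 16.1% in the control map. For control-only summits it was 27.5%, 62.1% and 43.1% in the 48h map and 38.4%, 92.0% and 43.9% in the control map. With the cut on reads the 2 maps thus gave near shares there. That cut was 10 reads in both maps, above the control map's own median of 8 and below the 48h map's 13. The cause of the near shares was not tested.

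RNA counts, over all genes and by peak state, stayed within 1.5 times under every other test, scaling, filter and left-out library, although the median of all genes shifted by 0.11 with DESeq2's size factors, 0.19 with library size alone and 0.24 with no filter. Leaving out 1 library gave 5797 to 6526 higher genes and 4697 to 5422 lower genes. By 2-fold or more there were 3968 to 4499 and 2208 to 2996. For 48h-only genes it gave 1013 to 1039 higher and 89 to 111 lower, and for control-only genes 30 to 38 and 35 to 48. The small negative change of Rpn6 turned to 0.0789 with DESeq2's size factors, 0.0788 with its test, 0.16 with library size alone, 0.21 with no filter and 0.0399 with the 2 groups alone, and ran from -0.0464 to 0.21 without 1 library. That of bru1 turned to 0.0183 with DESeq2's size factors, 0.0182 with its test, 0.10 with library size alone and 0.15 with no filter, and ran from -0.0827 to 0.14 without 1 library. CG10395 lost its call in 5 settings, with adjusted p from 0.0544 to 0.492 (edgeR), and DEF8 gained one in 5.

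Same-numbered RNA libraries share only a number (correlation of their deviations 0.107, with 2 pairs). With the number as a replicate block, 5957 genes passed as higher and 5654 as lower, 4065 and 3069 of them at 2-fold, with 1016 and 125 among the 48h-only genes. The block changed no call of a named gene. Gene starts in place of both ends were not run, since the table gives no strand.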
